A study of Mus musculus with 8 samples.

Results

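The expression of 10 genes that carry transforming growth factor beta (TGF-beta) from its latent store to its receptors was followed during the differentiation of osteoblastic cells from the calvaria of mice with Def6 (WT) and without it (Def6-/-). They are the 3 ligand genes Tgfb1, Tgfb2 and Tgfb3, the 3 receptor genes Tgfbr1, Tgfbr2 and Tgfbr3, and the 4 genes of the latent TGF-beta binding proteins, Ltbp1, Ltbp2, Ltbp3 and Ltbp4. They were chosen by symbol from the 24421 genes of the expression files, and all 10 passed the filter that left 12348 genes for testing. The cells were released with collagenase and dispase from the skull bones of C57BL/6 mice aged 0 to 3 days, and differentiation was induced with ascorbic acid and beta-glycerophosphate. Poly-A RNA was sequenced from 2 libraries in each of 4 groups, WT and Def6-/- at day 0 and WT and Def6-/- at day 12 of osteogenic culture. The Def6-/- mice lack Def6 in the whole animal and not in osteoblasts alone, and the number of mice behind each library is not given in the sources used here. Because the sources do not say which libraries came from the same mice, the p-values below measure the spread between these libraries.

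TGF-beta ligands are made as precursors whose propeptide stays folded around the growth factor and keeps it inactive. Latent binding proteins are secreted with this complex and tether it to fibrillin and fibronectin in the matrix, from which integrins, proteases and resorbing osteoclasts can release it. Free ligand brings the type II receptor to the type I receptor, which phosphorylates Smad2 and Smad3, and in bone this signal is known to recruit and expand osteoblast precursors and to hold back their late maturation.

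The labels were checked first against Def6 itself. Def6 had 147 and 112 reads in the WT libraries at day 0, and 186 and 137 at day 12. The Def6-/- libraries had 0 and 1 reads at day 0, and 2 and 2 at day 12, so every library matched its genotype label. Reads on genes ranged from 2414856 to 3482837 per library, and the 10 genes had between 51 and 1919 reads in every library. Markers of osteoblasts summed to 36262 to 53528 normalized CPM at day 0 and 94546 to 130347 at day 12, with Bglap, the osteocalcin gene, at 0 reads in all 4 libraries at day 0 and above 0 in all 4 at day 12. Sums for other cell types were 1960 to 3934 (day 0) and 798 to 1193 (day 12) for chondrocyte markers, 32.8 to 39.6 and 293 to 409 for adipocyte markers, and 0.785 to 5.64 and 10.8 to 12.8 for endothelial markers. Col1a1, Col1a2 and Sparc made up most of the osteoblast sums, Col2a1 of the chondrocyte sums and Lpl of the adipocyte sums. Not every marker went with its sum, as Spp1 and Sox9 overlapped between the days and Col9a1 was higher at day 12 in both genotypes. Runx2 and Sp7, on the osteoblast list, overlapped between the days in WT cells and were higher at day 12 without overlap in Def6-/- cells. In WT cells Runx2 was at 50.6 and 108 normalized CPM and then at 91.9 and 105, and Sp7 at 42.4 and 80.0 and then at 66.9 and 71.4. A normalized CPM is a count per 1000000 reads on genes after a correction for RNA composition. WT replicate 1 at day 0 stood apart from the other libraries. In it 34.9% of reads aligned to more than 1 place, against 21.4% to 26.6% in the other 7. Its 6 contractile cell markers, mostly Acta2 and Tagln, summed to 17421 normalized CPM, against 7136 to 8729 in the other libraries at day 0. WT replicate 1 also held the lowest day 0 level of 7 of the 10 genes described here. Values without it are given beside the results that it moved most.

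Over 12 days the ligands moved in opposite directions, with Tgfb3 falling and Tgfb1 rising in both genotypes. Ltbp1 and Ltbp4 fell alongside Tgfb3, while the 3 receptor genes, Ltbp2 and Ltbp3 did not pass the test. In WT cells 2 of the 10 genes rose and 3 fell, where 12.1% of all genes tested rose and 6.61% fell (limma, Benjamini-Hochberg adjusted p under 0.05). In Def6-/- cells 1 of the 10 rose and the same 3 fell, against 11% and 6.2% of all genes. For the 10 genes the median log2 change was 0.28 (WT) and 0.07 (Def6-/-), and for all genes tested it was -0.04 and -0.07. Without WT replicate 1 at day 0, the log2 change in WT cells was 1.61 for Tgfb1, 0.70 for Tgfb2, -1.48 for Tgfb3, -1.72 for Ltbp1 and -2.48 for Ltbp4, and all 5 were still called.

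**Figure D1:**
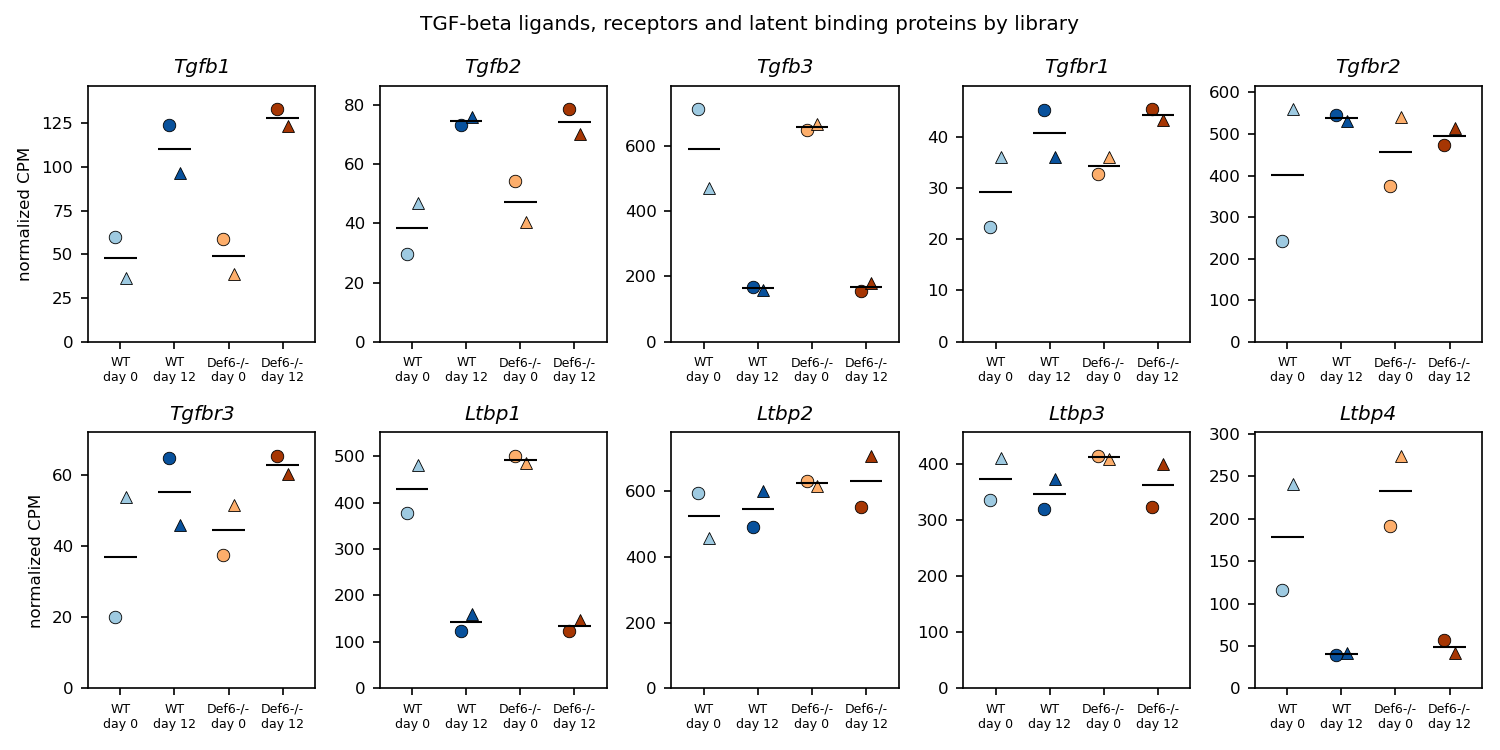
Normalized CPM (vertical axes, linear, starting at 0) of the 10 genes in each of the 8 libraries, with circles for replicate 1, triangles for replicate 2 and a line at the mean of each group. Tgfb3, Ltbp1 and Ltbp4 are lower at day 12 than at day 0 in every library, Tgfb1 and Tgfb2 are higher, and the WT replicate 1 circle at day 0 is the lowest point for all 3 receptor genes.

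Tgfb3 encodes the ligand best known for palate fusion and for its part in tendon and skeletal precursors. In WT cells it was at 711 and 471 normalized CPM at day 0 and at 167 and 160 at day 12. The Def6-/- libraries were at 648 and 667 at day 0 and at 156 and 181 at day 12. Every day 0 library was thus above every day 12 library, by a wide margin. The level fell by 1.82 on the log2 scale in WT cells (standard error 0.21, adjusted p = 0.00082 by limma), or 3.53-fold, and it fell by 1.96 in Def6-/- cells (standard error 0.21, adjusted p = 0.0006), or 3.90-fold. These folds, like those that follow, are on the log2(CPM + 1) scale.

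Tgfb1 encodes the ligand that is stored in large amounts in bone matrix and couples resorption to formation. It was at 60.03 and 36.4 normalized CPM in the WT libraries at day 0 and at 124 and 96.8 at day 12. The Def6-/- values were 59.0 and 38.7 at day 0, and 133 and 123 at day 12. The day 0 and day 12 libraries did not overlap in either genotype, although replicates at day 0 differed by more than those of Tgfb3 did in Def6-/- cells. Tgfb1 rose by 1.21 on the log2 scale in WT cells (standard error 0.29, adjusted p = 0.021 by limma) and by 1.40 in Def6-/- cells (standard error 0.29, adjusted p = 0.0114). The call in WT cells was lost when either WT library at day 12 was left out or only the WT libraries were fitted, and that in Def6-/- cells was lost without replicate 2 at day 0 or without either library at day 12, with an adjusted p of up to 0.164 in WT cells and 0.0968 in Def6-/- cells.

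Macrophages also express Tgfb1, and most markers of macrophages rose over the same days. Cx3cr1 did not, at 2.31 to 6.69 normalized CPM at day 0 and 0.401 to 3.32 at day 12. The 12 macrophage markers, among them Lyz2, Mrc1 and Laptm5, summed to 183 to 399 normalized CPM at day 0 and to 3068 to 6200 at day 12. None of the 12 was at 0 in both libraries of a group, and 11 of them had at least 10 reads in both libraries of each group at day 12. At day 12 the sum was 6200 and 3068 in the WT libraries, whose Tgfb1 was 124 and 96.8, and 3806 and 3289 in the Def6-/- libraries, whose Tgfb1 was 133 and 123. The part of these cells in the Tgfb1 level was not tested. In bulk RNA, a change in the number of cells of a type and a change in RNA per cell cannot be told apart.

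Tgfb2 encodes the third ligand, which needs betaglycan to bind the type II receptor well. It was at 29.8 and 46.9 normalized CPM in WT cells at day 0 and at 73.1 and 75.9 at day 12. The Def6-/- libraries were at 54.3 and 40.5, then at 78.6 and 70.2. Both genotypes had higher values at day 12 with no overlap. The change in WT cells was 0.97 on the log2 scale (standard error 0.25, adjusted p = 0.0292 by limma), and the change of 0.65 in Def6-/- cells did not pass the test (adjusted p = 0.117). The changes themselves differed by -0.32 on the log2 scale, Def6-/- minus WT, with a 95% interval from -1.14 to 0.49, so a difference between the genotypes was not shown. The WT call was lost with the CPM values as deposited, with only the WT libraries fitted, and when any of the 4 day 12 libraries was left out (adjusted p up to 0.145). The Def6-/- change passed the test under 3 alternatives, with only the Def6-/- libraries fitted (adjusted p = 0.0195), without WT replicate 1 at day 0 (0.72, adjusted p = 0.00472) and without WT replicate 2 at day 0 (adjusted p = 0.00884).

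The sequences before the start of the 2 ligand genes that rose are shown because they differ in kind. They are the 250 bases upstream of the RefSeq start on GRCm38.p6, written 5' to 3' on the strand of the gene, with GC boxes (GGGCGG on either strand) in capitals for Tgfb1 and the TATA box (TATAAA) in capitals for Tgfb2. Tgfb1 is on the plus strand at chr7:25686752-25687001 and Tgfb2 on the minus strand at chr1:186705990-186706239.
Tgfb1: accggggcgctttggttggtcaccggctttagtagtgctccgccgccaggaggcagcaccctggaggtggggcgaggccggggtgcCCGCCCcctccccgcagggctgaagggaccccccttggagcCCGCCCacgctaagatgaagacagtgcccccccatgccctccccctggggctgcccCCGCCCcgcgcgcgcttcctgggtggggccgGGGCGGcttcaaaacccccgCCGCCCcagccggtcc
Tgfb2: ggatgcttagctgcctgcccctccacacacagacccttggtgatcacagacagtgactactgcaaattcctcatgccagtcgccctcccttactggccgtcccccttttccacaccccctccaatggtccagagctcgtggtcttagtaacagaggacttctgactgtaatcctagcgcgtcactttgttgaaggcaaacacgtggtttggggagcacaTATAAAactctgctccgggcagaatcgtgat
The Tgfb1 window was 75.2% G and C and held 5 GC boxes and no TATA box. The Tgfb2 window was 53.6% G and C and held a TATA box at position -31, counted so that -1 is the base before the start, and no GC box. Among 32851 windows of the same length in the RefSeq table, 32.7% held a GC box and 12.4% a TATA box.

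Compared per kilobase of exon, the ligand pool changed from mostly Tgfb3 to a near equal mix of Tgfb3 and Tgfb1. Tgfb3 made up 85.4% ± 1.36 (SD, n = 2) of the summed ligand level at day 0 and 42.6% ± 2.47 at day 12 in WT cells. It made up 86.1% ± 3.47 and then 40.4% ± 4.001 in Def6-/- cells. The share of Tgfb1 was 10.7% ± 0.844 and then 44.7% ± 3.93 in WT cells, and 9.91% ± 2.72 and then 47.9% ± 2.98 in Def6-/- cells. Tgfb2 made up 3.91% ± 2.20 at day 0 and 12.7% ± 1.46 at day 12 in WT cells. The summed level of the 3 ligands was 204 ± 55.5 normalized CPM per kb at day 0 and 113 ± 10.1 at day 12 in WT cells, and 226 ± 4.32 and 123 ± 0.957 in Def6-/- cells. No library at day 12 reached the lowest summed level at day 0, 165 normalized CPM per kb. These shares are a description without a test.

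**Figure D2:**
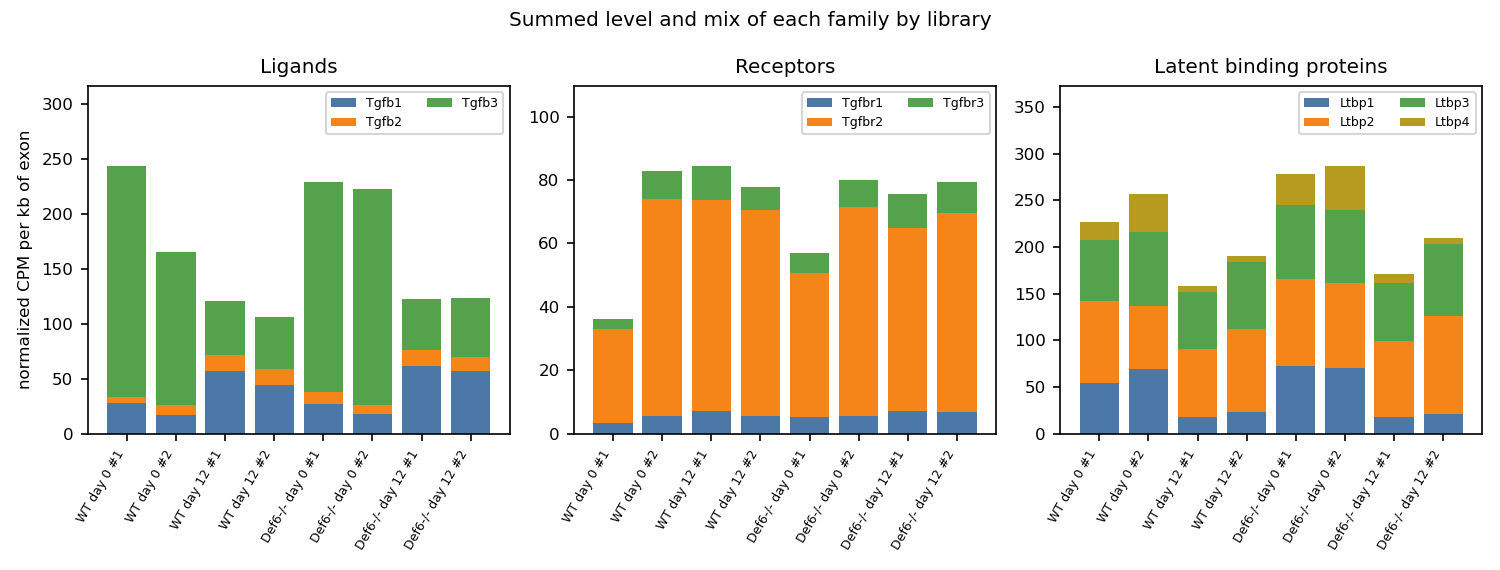
Summed normalized CPM per kb of exon (vertical axes, linear, starting at 0) of ligands, receptors and latent binding proteins in each library, stacked by gene. Tgfb3 fills most of the ligand bars at day 0 and 37.6% to 44.4% of them at day 12, Tgfbr2 fills 76.5% to 83.1% of every receptor bar, and Ltbp1 and Ltbp4 shrink in the bars at day 12.

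Tgfbr2, which encodes the type II receptor that binds ligand first, was at 242 and 560 normalized CPM in WT cells at day 0 and at 546 and 530 at day 12. The Def6-/- libraries were at 374 and 540, then at 474 and 514. WT replicate 1 at day 0 was below all other libraries, and the days overlapped in both genotypes. The log2 change was 0.55 in WT cells (95% interval from -0.25 to 1.35, adjusted p = 0.316 by limma) and -0.01 without that replicate (adjusted p = 0.983). In Def6-/- cells it was 0.13, with an interval from -0.67 to 0.93.

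Tgfbr1 encodes the type I receptor kinase that passes the signal to the Smads. Its values were 22.4 and 36.0 normalized CPM in WT cells at day 0, and 45.2 and 36.1 at day 12. Those of Def6-/- cells were 32.8 and 35.9, then 45.3 and 43.2. The libraries of the 2 days did not overlap, although replicate 2 of the WT cells had nearly the same value on both. The log2 change was 0.49 in WT cells (adjusted p = 0.22 by limma) and 0.36 in Def6-/- cells (adjusted p = 0.395), and without WT replicate 1 at day 0 the change in WT cells was 0.21.

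Tgfbr3 encodes betaglycan, the co-receptor that presents ligand and does not signal by itself. It was at 20.01 and 53.8 normalized CPM in WT cells at day 0 and at 64.6 and 45.9 at day 12, so the days overlapped. The Def6-/- libraries were at 37.4 and 51.4, then at 65.4 and 60.2, with no overlap. The log2 change was 0.71 in WT cells (adjusted p = 0.263 by limma) and 0.51 in Def6-/- cells (adjusted p = 0.45). Without WT replicate 1 at day 0 these became 0.06 and 0.57, and the latter passed the test (adjusted p = 0.0388). Leaving out WT replicate 2 instead, so that replicate 1 alone stood for WT cells at day 0, gave log2 changes in WT cells of 0.83 for Tgfbr1, 1.15 for Tgfbr2 and 1.40 for Tgfbr3, all 3 past the test (adjusted p up to 0.00787).

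Per kilobase of exon, Tgfbr2 was the most abundant receptor transcript in every library. It made up 81.9% ± 0.849 (SD, n = 2) of the summed receptor level at day 0 and 81.1% ± 2.86 at day 12 in WT cells, and 81.3% ± 1.55 and 77.8% ± 1.84 in Def6-/- cells. The summed receptor level was 36.3 normalized CPM per kb in WT replicate 1 at day 0 and between 56.9 and 84.4 in the other 7 libraries.

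Ltbp1 encodes the latent binding protein that is a main partner of the TGF-beta propeptide in bone and many other tissues. It was at 377 and 481 normalized CPM in WT cells at day 0 and at 124 and 160 at day 12. Def6-/- cells had 501 and 485, then 123 and 147. The 2 days were well apart in both genotypes. Ltbp1 fell by 1.59 on the log2 scale in WT cells (standard error 0.20, adjusted p = 0.00116 by limma), or 3.01-fold, and it fell by 1.86 in Def6-/- cells (standard error 0.20, adjusted p = 0.0006), or 3.64-fold. Tgfb3 and Ltbp1 kept their calls in both genotypes under all 18 alternatives.

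Ltbp4 encodes the latent binding protein best known for elastic fibre assembly, which also binds the TGF-beta1 complex. It was at 116 and 242 normalized CPM in WT cells at day 0 and at 39.8 and 42.2 at day 12. Def6-/- cells had 192 and 274, then 56.5 and 41.1. The replicates at day 0 were far apart, but all 4 lay above every day 12 library. Ltbp4 fell by 2.004 on the log2 scale in WT cells (standard error 0.34, adjusted p = 0.00468 by limma), or 4.01-fold, and it fell by 2.23 in Def6-/- cells (standard error 0.34, adjusted p = 0.00289), or 4.68-fold. The WT call was lost without WT replicate 1 at day 12 (adjusted p = 0.0505) and kept without WT replicate 1 at day 0.

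Ltbp3, which encodes the latent binding protein whose loss leads to short stature and thickened bone in mice, was at 335 and 409 normalized CPM in WT cells at day 0 and at 319 and 372 at day 12. Def6-/- cells had 414 and 409, then 324 and 400. The log2 change was -0.10 in WT cells (95% interval from -0.53 to 0.32) and -0.19 in Def6-/- cells (from -0.62 to 0.23), and neither passed the test.

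Ltbp2 encodes a matrix protein of the same family that does not bind latent TGF-beta. It was at 595 and 456 normalized CPM in WT cells at day 0 and at 489 and 601 at day 12. Def6-/- cells had 631 and 615, then 552 and 707. The days overlapped in both genotypes, with log2 changes of 0.06 (95% interval from -0.42 to 0.54) and 0.00 (from -0.47 to 0.48).

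The sequences before the starts of Ltbp1 and Ltbp4 are shown because these latent binding protein genes fell together. Both are from RefSeq on GRCm38.p6, written 5' to 3' on the strand of the gene. The Ltbp1 window is chr17:75005279-75005528 on the plus strand, with the cAMP response element (TGACGTCA) in capitals. For Ltbp4, on the minus strand, the part outside the annotated gene is printed, chr7:27337693-27337862, with GC boxes in capitals.
Ltbp1: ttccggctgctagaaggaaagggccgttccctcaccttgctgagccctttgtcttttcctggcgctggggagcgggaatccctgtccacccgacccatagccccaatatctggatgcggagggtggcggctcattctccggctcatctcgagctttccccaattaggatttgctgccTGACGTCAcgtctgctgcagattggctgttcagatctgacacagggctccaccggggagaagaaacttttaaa
Ltbp4: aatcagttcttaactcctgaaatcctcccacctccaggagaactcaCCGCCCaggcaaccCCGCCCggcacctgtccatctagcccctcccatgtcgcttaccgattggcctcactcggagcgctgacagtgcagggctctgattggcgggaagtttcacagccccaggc
The cAMP response element of Ltbp1 starts at position -73, and 1.55% of the 32851 windows held this motif. RefSeq has 2 windows for Ltbp1, 3 for Ltbp4 and 2 for Tgfbr1, and only the window nearest the annotated gene start is described for each. Which start was used in these cells is not known from reads counted per gene. The whole window of 250 bases before Ltbp4 held 3 GC boxes and no cAMP response element. Windows were read for 8 of the 10 genes, all but Tgfb3 and Tgfbr3, and in these 8 no AP-1 site (TGANTCA, in 6.75% of all windows), Smad palindrome (GTCTAGAC, in 0.167%) or Runx site (TGTGGT, in 14%) was found on either strand. Matches of different motifs did not overlap, and a match is a run of letters and not a binding site.

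Per kilobase of exon, the latent binding proteins changed from a mix of 4 transcripts to a pool of mostly Ltbp2 and Ltbp3. The share of Ltbp1 was 25.6% ± 2.17 (SD, n = 2) at day 0 and 11.7% ± 0.526 at day 12 in WT cells, and 25.3% ± 1.12 and then 10.3% ± 0.165 in Def6-/- cells. The share of Ltbp4 was 12.4% ± 5.16 and then 4.03% ± 0.362 in WT cells, and 14.03% ± 3.24 and then 4.48% ± 1.62 in Def6-/- cells. Ltbp2 made up 32.5% ± 8.87 and then 46.1% ± 0.647 in WT cells, at a level that did not pass the test for change. The summed level of Ltbp1, Ltbp3 and Ltbp4, which bind latent TGF-beta, was 164 ± 35.9 normalized CPM per kb at day 0 and 94.2 ± 11.2 at day 12 in WT cells, and 190.4 ± 7.61 and 97.6 ± 10.99 in Def6-/- cells.

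Across all 10 genes, Tgfb3 had the highest level per kilobase at day 0 and Ltbp2 at day 12, in both genotypes. At day 0 the WT mean of Tgfb3, 175 normalized CPM per kb (139 to 210), was separate from that of Ltbp2 below it, 77.6 (67.4 to 87.9). Ltbp2, Ltbp3, Ltbp1 and Tgfbr2, the next in order in WT cells at day 0, each overlapped their neighbour, while in Def6-/- cells these neighbours were separate from each other. At day 12 Tgfb1 and Tgfb3 were next to each other in the order, at 50.8 and 48.2 normalized CPM per kb in WT cells, where their libraries overlapped, and at 58.9 and 49.7 in Def6-/- cells, where they did not. Tgfbr1 was lowest in all 4 groups, at 4.55 to 6.90 normalized CPM per kb.

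**Figure D3:**
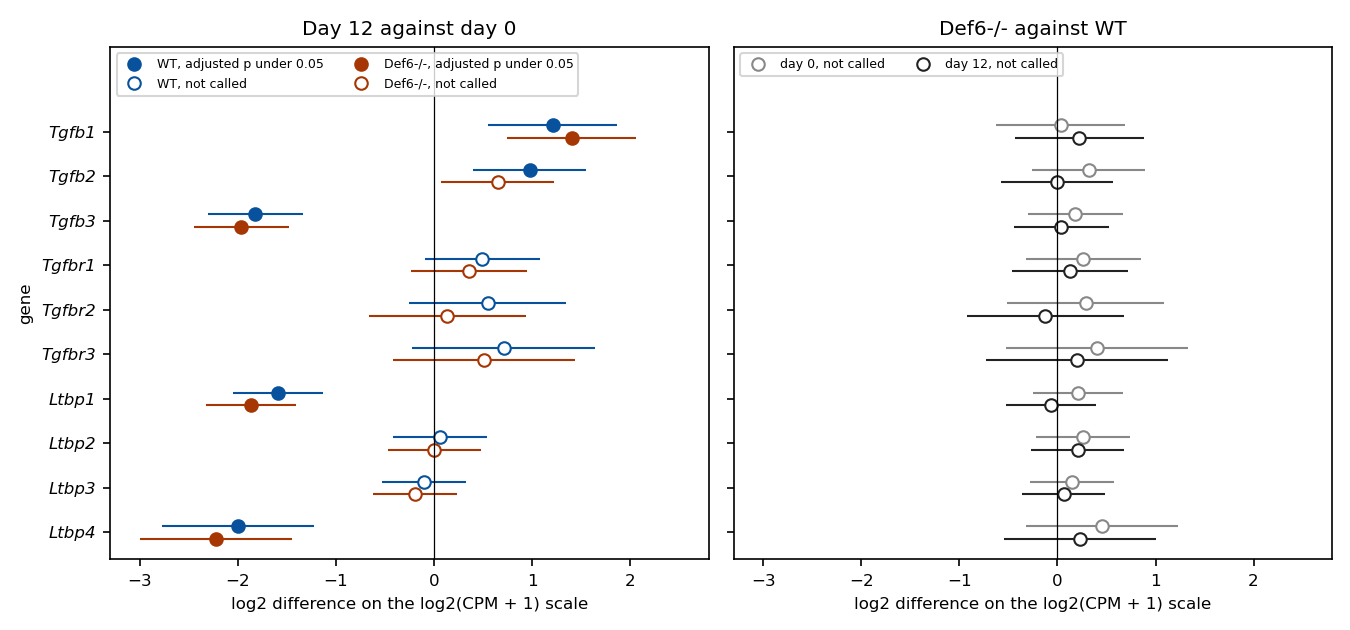
Log2 differences with 95% intervals (horizontal axes) for the 10 genes, with day 12 against day 0 on the left, in blue for WT and brown for Def6-/- cells, and Def6-/- against WT on the right, in grey for day 0 and black for day 12. Filled points have an adjusted p under 0.05. The day changes run from -2.23 to 1.40, and all 20 points of the right panel are open, between -0.12 and 0.45.

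Loss of Def6 was not seen to change any of the 10 genes at either time. At day 0, 0 of the 10 differed between Def6-/- and WT cells with an adjusted p under 0.05 by limma, where 0.0081% of all genes did, and 0 of 10 had an unadjusted p under 0.05, where 2.34% of all genes did. At day 12 the counts were again 0 and 0, against 0.0081% and 1.4% of all genes. The day changes differed between genotypes in 0 of 10 genes by either criterion, against 0% and 1.06% of all genes. DESeq2 and the quasi-likelihood test of edgeR on the recovered reads also gave 0 of the 10 in each of these comparisons.

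At day 0 all 10 log2 differences, Def6-/- minus WT, were above 0, from 0.03 for Tgfb1 to 0.45 for Ltbp4, with a median of 0.26 against 0.00 for all genes tested, and their 95% intervals reached from -0.63 to 1.33. Ltbp1 was at 501 and 485 normalized CPM in Def6-/- cells and at 377 and 481 in WT cells. Ltbp2 was at 631 and 615 against 595 and 456. These 2 genes had no overlap between genotypes. The share of all genes without overlap was not counted, so no result is drawn from this. WT replicate 1 had the lower value for Ltbp1 and WT replicate 2 for Ltbp2. Without WT replicate 1 the difference was 0.03 for Ltbp1 and 0.44 for Ltbp2, and those of Tgfb2, Tgfbr1, Tgfbr2, Tgfbr3 and Ltbp4 were below 0. Without WT replicate 2, with replicate 1 alone for WT cells, 4 of the 10 were higher in Def6-/- cells with an adjusted p under 0.05, Tgfb2 by 0.64, Tgfbr2 by 0.89, Tgfbr3 by 1.09 and Ltbp4 by 0.98 on the log2 scale, together with 2921 genes in all. Tgfbr2 then also differed in its day change, by -1.02 on the log2 scale, Def6-/- minus WT (adjusted p = 0.0224). The day 0 differences of these genes thus turned on the choice of WT library.

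At day 12 the log2 differences ran from -0.12 for Tgfbr2 to 0.23 for Ltbp4. Replicates of most of the 10 genes lay closer than at day 0 in WT cells. In Def6-/- cells those of Tgfb3, Ltbp1, Ltbp2 and Ltbp3 lay further apart than at day 0. Tgfb3 was at 156 and 181 normalized CPM in Def6-/- cells and at 167 and 160 in WT cells, a difference of 0.04 with a 95% interval from -0.45 to 0.53. Tgfb1 was at 133 and 123 against 124 and 96.8, a difference of 0.22 with an interval from -0.44 to 0.88. Tgfbr2 alone had no overlap, at 474 and 514 against 546 and 530, and the share of all genes without overlap was again not counted. The intervals of the 10 genes reached from -0.92 to 1.13 on the log2 scale, with the spread estimated over all 8 libraries.

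The other genes of the pathway were counted in 4 lists by role, to be read against the 12.1% of all genes tested that rose and the 6.61% that fell in WT cells, the 11% and 6.2% in Def6-/- cells, and medians over all genes of -0.04 and -0.07. The first held 19 genes that keep TGF-beta latent in the matrix or release it, of which 17 were tested. In WT cells 5 rose (Emilin1, Nrros, Thbs2, Mmp14 and Bmp1) and 1 fell (Itgb1), with a median log2 change of 0.49. In Def6-/- cells 4 of these 5, all but Mmp14, rose and 3 genes fell (Itgb1, Lrrc32 and Itgav), with a median of 0.48. Emilin1, whose protein limits processing of the TGF-beta1 precursor, was at 210.3 and 234 normalized CPM in WT cells at day 0 and at 645 and 727 at day 12. It rose by 1.62 on the log2 scale in WT cells (adjusted p = 0.000346 by limma) and by 1.48 in Def6-/- cells (adjusted p = 0.000596). Nrros, which encodes a protein that holds latent TGF-beta on macrophages and microglia, was at 1.96 and 4.73 normalized CPM in WT cells at day 0 and at 50.4 and 19.3 at day 12, and at 3.08 and 2.11 and then 25.3 and 23.2 in Def6-/- cells. Its rise of 2.97 and 2.82 on the log2 scale went with the summed macrophage markers given above. The part of macrophages in this rise was not tested.

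Thbs2, which encodes a matrix thrombospondin, rose by 1.06 (WT) and 0.84 (Def6-/-) on the log2 scale (adjusted p = 0.00939 and 0.0256 by limma). The WT call of Thbs2 was lost under 3 of the 18 alternatives (adjusted p up to 0.0837) and the Def6-/- call under 7, among them the CPM values as deposited and no filter (adjusted p up to 0.194). Itgb1, which encodes the beta 1 integrin chain, fell by 0.98 in both genotypes, from 2272 and 2072 normalized CPM to 1128 and 1073 in the WT libraries (adjusted p = 0.00577). Its call was lost under 3 alternatives in each genotype, with an adjusted p of up to 0.0775 (WT) and 0.1005 (Def6-/-). Emilin1 and Nrros were called in both genotypes under all 18 alternatives. The counts of this list in WT cells ranged from 2 to 9 higher and from 0 to 5 lower over these alternatives, with 7 higher and 5 lower without WT replicate 1 at day 0. Those in Def6-/- cells ranged from 2 to 8 higher and from 0 to 6 lower, with 8 and 6 without that library.

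Of 8 receptor partners and decoys, 7 were tested, and 1 rose and 1 fell in each genotype, which is close to the shares of all genes. Acvrl1, which encodes the type I receptor ALK1, was at 17.7 and 22.6 normalized CPM in WT cells at day 0 and at 41.3 and 38.6 at day 12, a rise of 0.96 on the log2 scale (adjusted p = 0.0142 by limma), and it rose by 0.98 in Def6-/- cells. Cd109, which encodes a co-receptor that dampens TGF-beta signalling, was at 222 and 274 and then at 120.1 and 108 in WT cells. It fell by 1.11 in WT cells (adjusted p = 0.00912), and it fell by 0.93 in Def6-/- cells (adjusted p = 0.0206). Both WT calls were lost without either WT library at day 12, and that of Acvrl1 also with only the WT libraries fitted. The Def6-/- call of Acvrl1 was lost without any of the 4 Def6-/- libraries, and that of Cd109 without 3 of them. The Def6-/- call of Cd109 was also lost with the CPM values as deposited and without WT replicate 2 at day 12.

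The list of intracellular signalling genes and inhibitors held 16 genes, all tested, and none rose. In WT cells 5 of the 16 fell, with a median log2 change of -0.46, and in Def6-/- cells 7 fell, with a median of -0.53, where 6.61% and 6.2% of all genes fell. The 7 were Smad7, Smad6, Skil, Pmepa1, Tgif1, Smurf1 and Smurf2, all known as negative regulators of the pathway, as are most listed genes. Smurf1 and Smurf2 were the ones not called in WT cells. Ski, Tgif2 and Ppm1a, also negative regulators, did not pass the test in either genotype, nor did Fkbp1a, Trim33 and Zfyve9. Smad7, the inhibitory Smad that blocks the type I receptor, was at 93.0 and 59.3 normalized CPM in WT cells at day 0 and at 20.49 and 23.4 at day 12, and at 95.2 and 69.7 and then 22.5 and 18.3 in Def6-/- cells. It fell by 1.72 on the log2 scale in WT cells (adjusted p = 0.00339 by limma), and it fell by 1.96 in Def6-/- cells (adjusted p = 0.00182). Day 0 and day 12 libraries were apart in both.

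Smad6, the inhibitory Smad of BMP signalling, had log2 changes of -1.18 (WT) and -1.33 (Def6-/-), and Skil, which encodes the co-repressor SnoN, of -1.44 and -1.51, all with an adjusted p of at most 0.00377 by limma. Pmepa1, which encodes a membrane protein that sequesters Smad2 and Smad3, was at 585 and 254 normalized CPM in WT cells at day 0 and at 106 and 98.4 at day 12. Its log2 change was -1.90 in WT cells (adjusted p = 0.0102) and -1.76 in Def6-/- cells (adjusted p = 0.0151), and neither was called without either day 12 library of the same genotype. The Def6-/- call was also lost without Def6-/- replicate 1 at day 0 (adjusted p over these alternatives up to 0.137). In WT cells the change was -1.25 without replicate 1 at day 0 (adjusted p = 0.00387 by limma) and -2.51 without replicate 2, and that of Smad7 was -1.35 and -2.04. Smad7, Smad6 and Skil were called in both genotypes under all 18 alternatives, under which the counts of lower genes ranged from 3 to 7 in WT cells and from 3 to 9 in Def6-/- cells. Without WT replicate 1 at day 0 they were 7 and 8. Smad2, Smad3 and Smad4, which carry the signal, did not pass the test in either genotype.

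Of 11 genes known as TGF-beta targets, all tested, 5 fell and 2 rose in each genotype, against the shares of all genes given above, with median log2 changes of -0.35 in WT cells and -0.63 in Def6-/- cells. The 5 that fell were Cyr61, Ctgf, Scx, Cdkn1a and Tgfbi. Cyr61, which encodes the matricellular protein CCN1, was at 2161 and 1034 normalized CPM in WT cells at day 0 and at 333 and 397 at day 12, and at 1713 and 1159 and then 279 and 381 in Def6-/- cells. Replicate 1 was the higher at day 0 in both genotypes, and every day 0 library lay above every day 12 library. Cyr61 fell by 2.04 on the log2 scale in WT cells (standard error 0.35, adjusted p = 0.00494 by limma), and it fell by 2.11 in Def6-/- cells (standard error 0.35, adjusted p = 0.00429). Without WT replicate 1 at day 0 the Cyr61 change in WT cells was -1.46 (adjusted p = 0.000884 by limma). The calls of Cyr61 were lost without replicate 1 of the same genotype at day 12 (adjusted p = 0.0585 and 0.06).

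Tgfbi, which encodes a matrix adhesion protein, had log2 changes of -0.85 (WT) and -1.19 (Def6-/-), with an adjusted p of 0.0197 and 0.00458 by limma. The WT call of Tgfbi was lost with only the WT libraries fitted and without any of the 4 day 12 libraries (adjusted p up to 0.139), and the Def6-/- call without replicate 1 at day 0 or replicate 2 at day 12 of those cells (adjusted p up to 0.0686). Postn, which encodes periostin of the periosteal matrix, went the other way, from 361 and 249 normalized CPM to 1316 and 1339 in WT cells, a rise of 2.14 (adjusted p = 0.000829), and it rose by 2.18 in Def6-/- cells (adjusted p = 0.000791). Adam12, which encodes a metalloprotease, rose by 0.89 in WT cells (adjusted p = 0.0095), and the change of 0.52 in Def6-/- cells did not pass the test (adjusted p = 0.0791), although it did under 3 of the 18 alternatives, while the WT call was lost under 3. The other target that rose in Def6-/- cells was Cdkn2b, which encodes a cell cycle inhibitor, with a log2 change of 0.80 there (adjusted p = 0.0482 by limma) and 0.65 in WT cells (adjusted p = 0.0927). The day changes of Adam12 and Cdkn2b were not shown to differ between the genotypes. Postn rose under all 18 alternatives in both genotypes, while the count of lower targets ranged from 0 to 5 in WT cells and from 1 to 6 in Def6-/- cells. Without WT replicate 1 at day 0, 5 targets were lower and 3 higher in WT cells, and 6 and 3 in Def6-/- cells. Several targets also answer to other signals. The summed contractile markers fell over the same days, from 7136 to 17421 normalized CPM at day 0 to 2371 to 2663 at day 12. These sums were mostly Acta2 and Tagln, which fell, as did Cnn1. Myh11, Des and Rgs5, at most 15.4 normalized CPM in any library, rose or overlapped between the days. What the fall of the sums had to do with the targets was not tested.

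**Figure D4:**
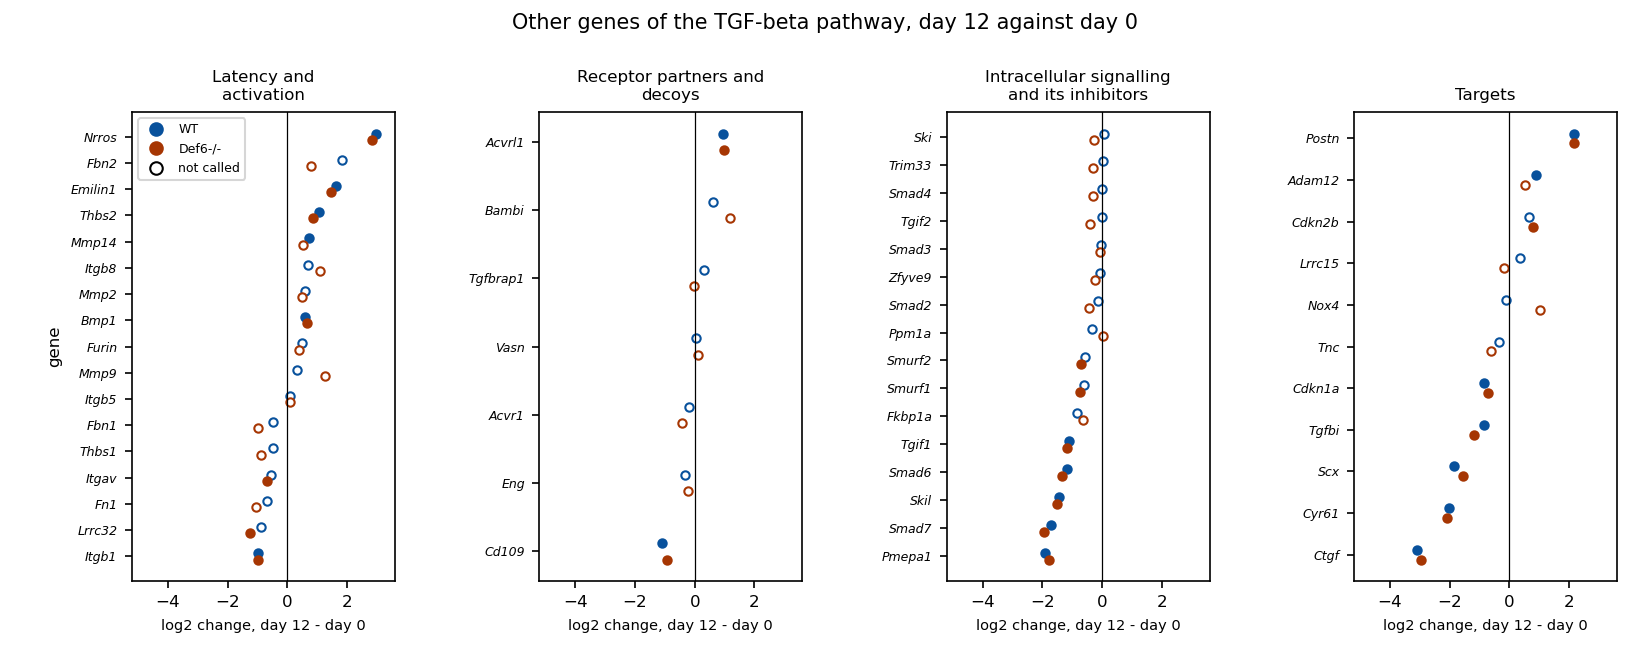
Log2 change from day 0 to day 12 (horizontal axes, log2(CPM + 1) scale) of each tested gene of the 4 lists, in blue for WT and brown for Def6-/- cells, with filled points for an adjusted p under 0.05. Filled points of the intracellular list all lie below 0, and the targets run from -3.09 for Ctgf to 2.18 for Postn.

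In none of the 4 lists did a gene differ between the genotypes with an adjusted p under 0.05, at day 0, at day 12 or in the day change. By unadjusted p under 0.05 there was 1, Adam12 at day 0, where 2.34% of all genes had such a p, at 103 and 83.8 normalized CPM in Def6-/- cells against 58.8 and 61.5 in WT cells. Its difference of 0.62 on the log2 scale had an adjusted p of 0.905 by limma, and passed the test under 1 of the 18 alternatives, without WT replicate 2 at day 0 (adjusted p = 0.0139).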

How the data were processed

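Poly-A libraries were read on an Illumina HiSeq. After alignment to mm10 (HISAT2) and counting (HTSeq), the authors used edgeR to express the counts as CPM, the unit they deposited. Tool versions, annotation and strand setting are not given in the sources used here. The deposited CPM are per 1000000 of all reads, those outside genes included (28.8% to 35.3% of reads were on genes). CPM were rescaled to reads on genes with TMM factors and tested with limma 3.58.1 (lmFit, eBayes with trend, two-sided) on log2(CPM + 1), with 8 libraries in 1 fit of 4 group means, in R 4.3.3. Genes stayed in if the deposited CPM averaged 1 or more in any group, and p-values were adjusted by Benjamini-Hochberg over 12348 genes. A call is an adjusted p under 0.05. The edgeR 4.0.16 quasi-likelihood test and DESeq2 1.42.0 were run on whole reads recovered from the CPM as alternatives, since 99.957% of 114821 positive values were whole to within 0.02 reads. The 49 exceptions lie in 9 genes, so Itgb3 was left out of its list. All values of the 10 genes were whole.

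Exon lengths came from GENCODE vM21 on GRCm38, the build of mm10, with all exons of a gene merged. Ctgf and Cyr61 are the symbols of Ccn2 and Ccn1 in the files. The 10 genes, the lists and the tests were chosen with earlier results of these data known. Named from each list were up to 4 called genes with the smallest p over both day comparisons and any gene with an unadjusted p under 0.05 between genotypes; other list genes, such as Tgif1 or Ctgf, were named after their values were seen to complete a count. A further target was left out of its list and is not reported here. The main fit was also run on simulated counts with the same dispersion of a gene in every group, unlike the wider spread seen in WT cells at day 0. No result rests on that run.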

Additional observations from a re-analysis of the deposited data

How the results depend on the processing

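Each comparison was rerun under 18 alternatives: other scalings, pseudocounts and filters, only the compared groups, a replicate block, edgeR, DESeq2, and each library left out. Where a group kept 1 library, it was assumed to vary like the others. With only the WT libraries fitted, 3 of the 10 genes were called over days and 1040 genes in all, against 5 and 2307. With only the Def6-/- libraries fitted, 4126 genes were called against 2130. With only the day 0 libraries, 0 genes differed between genotypes against 1. Leaving out a library gave 2 to 8 of the 10 and 824 to 5721 genes for WT days, 3 to 6 and 862 to 4483 for Def6-/- days, 0 to 4 and 1 to 2921 for genotype at day 0, 0 of the 10 and 0 to 3 at day 12, and 0 to 1 and 0 to 1332 for the difference of the day changes. By unadjusted p these were 0 to 6 of the 10 at day 0, 0 at day 12 and 0 to 4 for the difference. The highest counts came without WT replicate 2 at day 0, except in Def6-/- days and at day 12, where leaving out either WT library at day 0 raised them. Replicates differed most in WT cells at day 0. The SD of the difference between replicates was 0.765 there and 0.296 in WT cells at day 12. In Def6-/- cells this SD was 0.358 (day 0) and 0.317 (day 12). The main fit took 1 spread per gene over all 8 libraries, so the WT pair at day 0 entered the standard errors and intervals of every comparison. The cause of the raised counts was not tested. The replicate block gave 5 and 4 of the 10 over days and 0 between genotypes, with 2587 and 2326 genes over days. Deviations of libraries with the same number correlated at 0.0186 to 0.413, highest between the genotypes at day 0, and since not every correlation was over 0.1 and no source pairs them, the numbers were not used as pairs. No call on the 10 genes reversed. The number of genes with an unadjusted p under 0.05 between genotypes at day 0 was 289, and 443 with no filter, 171 with a filter at 5 CPM and 100 with only the day 0 libraries. At day 12 it was 173, and 450, 75 and 571 likewise. Taking the longest transcript as a gene's length, an alternative chosen after seeing the data, moved no share by more than 0.920 percentage points. Genes below about 10 reads, such as Itgb6, are beyond this depth.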

Other observations

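For the member of each family with the smallest p over both day comparisons, the genes whose level followed it most closely were looked up. The search was among 9586 genes with a mean of at least 10 normalized CPM. The correlations are over 8 libraries that fall into 2 days, so they describe mostly the step between the days, and carry no test. Ppme1, which encodes a phosphatase methylesterase, was closest to Tgfb3 (Pearson's r = 0.998), at 102 to 126 normalized CPM at day 0 and 52.5 to 58.9 at day 12. Lims1, which encodes the focal adhesion protein PINCH1, followed at r = 0.995 and Sdpr, which encodes a caveolar protein, at r = 0.994.

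Closest to Ltbp1 were Vgll3, a cofactor of TEAD factors (r = 0.996), Loxl1, a lysyl oxidase of elastic fibres (r = 0.995), and Fam65b (r = 0.995). Loxl1 was at 448 to 492 normalized CPM at day 0 and 319 to 357 at day 12. Of the receptors only Tgfbr1 was looked up, and closest to it were Rcan3 (r = 0.993), Pygo1 (r = 0.985) and B4galt1 (r = 0.983). For all 3 of these genes, WT replicate 1 at day 0 held the lowest value of the 8 libraries.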
